A study of Homo sapiens with 6 samples.

Results

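The 10 genes described here encode the enzymes and the chaperone that modify and crosslink collagen: P4HA1, P4HA2, PLOD1, PLOD2, PLOD3, COLGALT1, SERPINH1, LOX, LOXL1 and LOXL2. They were chosen by symbol for these roles, and all 10 were found among the 29476 genes of the count table and were among the 15615 genes tested. The 10 genes and the related lists below were chosen with earlier results of these data known. Their RNA was measured in A549 cells, a human cell line established from a lung adenocarcinoma. There were 3 libraries of cells with a nontargeting siRNA (siCtrl) and 3 of cells with an siRNA against DDX17 (siDDX17). The sample labels give a harvest at 48 h for every library. DDX17 is a DEAD-box RNA helicase that takes part in transcription, splicing and microRNA processing. The sample labels name these groups control plasmid and DDX17 knockdown, whereas the methods describe transfection of siRNA with a Lipofectamine reagent into cells kept in medium with serum. The groups rest on a single cell line and a single DDX17 siRNA, without an untransfected group among the samples. The methods call the 3 libraries of a group biological replicates.

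Collagen chains are modified in the endoplasmic reticulum before they fold. Prolyl 4-hydroxylases, made of a catalytic alpha subunit (P4HA1, P4HA2 or P4HA3) and the beta subunit P4HB, hydroxylate prolines and so stabilise the triple helix, while lysyl hydroxylases (PLOD1, PLOD2, PLOD3) hydroxylate lysines to which COLGALT1 then adds galactose. SERPINH1, also called HSP47, is a chaperone that binds the folded procollagen, and outside the cell LOX and its relatives LOXL1 and LOXL2 oxidise lysines of collagen and elastin so that crosslinks can form.

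In short, 5 of the 10 genes rose in the DDX17 knockdown group and 2 fell. The genes that rose were the prolyl 4-hydroxylase alpha subunits P4HA1 and P4HA2, the lysyl hydroxylase PLOD1, the galactosyltransferase COLGALT1 and the chaperone SERPINH1. They rose by between 18.8% and 49.8%. The genes that fell were LOX, by 43.8%, and PLOD2, by 20.2%. LOX had few reads, and the call was lost in 1 alternative fit for LOX and in 5 for PLOD2. PLOD3, LOXL1 and LOXL2 did not pass the test. In bulk RNA a lower level per cell cannot be told apart from fewer cells that express the gene. A gene is said to rise or fall where the adjusted p of edgeR's quasi-likelihood test (Benjamini-Hochberg over all tested genes) was under 0.05. By this rule 24.5% of all tested genes rose, 24.3% fell and 48.8% changed in either direction, so 7 changed genes of 10 is to be read against that share. A fold change past 1.5 was reached by LOX, 1 of the 10, against 20.4% of all tested genes (11.9% higher, 8.55% lower). Past a fold of 2 there were 0 of the 10 by edgeR, also at an unadjusted p under 0.05 and by DESeq2 and limma, against 7.57% of all genes (4.65% higher, 2.92% lower). The median log2 fold change of the 10 genes was 0.17, beside 0.01 over all tested genes.

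The libraries held 30658136 to 39182371 counted reads. DDX17, the targeted gene, was at 177, 184 and 206 CPM (the read count relative to the TMM-corrected total of its library) across siCtrl 1 to 3, against 32.1, 30.8 and 30.4 CPM across siDDX17 1 to 3. It was thus far lower in each knockdown library (log2 fold change -2.60, SE 0.0685, adjusted p = 5.89e-11, edgeR). Epithelial keratins and the aldo-keto reductases abundant in this line were detected, with KRT8 at 1351 and AKR1B10 at 2445 mean FPKM (reads relative to gene length and library total, as deposited) in siCtrl. Of the 10 markers of this line 7 fell and 1 rose, against 24.3% and 24.5% of all tested genes. They summed to 18265 to 20269 CPM in siCtrl and 15409 to 15980 CPM in siDDX17. The marker that rose was EPCAM, near 0 in siCtrl at 0.400 FPKM. Of 4 alveolar markers found, 2 passed the filter, NKX2-1 at 0.103 FPKM, which did not pass the test, and AGER at 0.560 FPKM, which fell. Of 9 fibroblast markers, whose parent cells make most collagen in tissue, 2 passed the expression filter (COL1A1 and THY1), and the list summed to 5.20 to 7.90 CPM in siCtrl and 6.67 to 7.11 CPM in siDDX17. PDGFRA, PDGFRB and DCN were at 0.0100, 0.0133 and 0.0100 mean FPKM in siCtrl. Of 6 endothelial and blood cell markers 2 passed the filter, CD14 and CD68, and that list summed to 22.4 to 29.8 CPM in siCtrl and 30.3 to 30.4 CPM in siDDX17. CD14 itself was at 24.6 mean CPM in siCtrl and 28.5 in siDDX17 and did not pass the test (adjusted p = 0.0772, edgeR). PECAM1, CDH5, VWF and PTPRC were each at or under 0.0267 mean FPKM in either group. The part of these markers in the results was not tested. The library siCtrl 1 stood apart from the other controls on the second principal component (27.6, against -11.2 and -16.9). Without it the counts of the 10 genes that rose and fell stayed at 5 and 2. PLOD2, LOX, the PLOD2 to PLOD1 and LOXL1 to LOX ratios, TGF-beta-inducible genes and heat shock genes are given with and without siCtrl 1.

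Promoter sequences, from 250 bases before to 50 after a RefSeq start on GRCh38.p14, were found for 9 of the 10 genes, LOXL2 being the exception. P4HA1, P4HA2, PLOD2 and LOX are known as genes induced by hypoxia and SERPINH1 as a gene induced by heat shock, and the windows of 1 gene that rose and the 2 that fell are shown for the first kind, with SERPINH1 for the second. Capitals mark ACGTG and GCGTG, the core letters of hypoxia response elements, on either strand (so also CACGT and CACGC), and in SERPINH1 also GAANNTTC, the letters of a heat shock element. A CACGTG would hold ACGTG on both strands at once.
P4HA1, chr10:73096817-73097116, minus strand: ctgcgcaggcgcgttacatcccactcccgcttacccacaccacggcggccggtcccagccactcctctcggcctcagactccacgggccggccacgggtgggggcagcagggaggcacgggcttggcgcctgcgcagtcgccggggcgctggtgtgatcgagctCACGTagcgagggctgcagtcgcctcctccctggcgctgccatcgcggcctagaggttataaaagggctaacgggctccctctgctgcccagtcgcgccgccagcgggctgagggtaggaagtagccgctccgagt
PLOD2, chr3:146161135-146161434, minus strand: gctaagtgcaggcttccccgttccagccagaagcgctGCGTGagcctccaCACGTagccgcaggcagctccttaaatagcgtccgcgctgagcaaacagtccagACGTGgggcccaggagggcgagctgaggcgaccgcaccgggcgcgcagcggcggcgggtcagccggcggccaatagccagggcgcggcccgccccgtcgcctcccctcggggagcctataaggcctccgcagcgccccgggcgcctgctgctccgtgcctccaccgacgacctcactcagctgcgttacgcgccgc
LOX, chr5:122078210-122078509, minus strand: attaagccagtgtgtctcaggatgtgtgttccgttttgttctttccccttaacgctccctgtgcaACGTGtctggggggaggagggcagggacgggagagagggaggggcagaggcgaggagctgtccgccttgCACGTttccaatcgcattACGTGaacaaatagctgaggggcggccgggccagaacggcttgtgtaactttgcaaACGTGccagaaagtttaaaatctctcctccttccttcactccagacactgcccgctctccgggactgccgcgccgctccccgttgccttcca
SERPINH1, chr11:75562003-75562302, plus strand: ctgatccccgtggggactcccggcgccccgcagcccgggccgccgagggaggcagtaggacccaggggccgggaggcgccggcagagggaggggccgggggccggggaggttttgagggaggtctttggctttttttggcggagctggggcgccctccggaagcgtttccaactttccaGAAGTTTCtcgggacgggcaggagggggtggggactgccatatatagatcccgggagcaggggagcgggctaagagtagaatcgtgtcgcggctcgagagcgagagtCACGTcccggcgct
P4HA1 holds 1 ACGTG, 86 bases before its start, and the letters TATAAA 29 bases before it. PLOD2 holds 2 ACGTG, 200 and 146 bases upstream, and 1 GCGTG. LOX holds 4 ACGTG, 185, 116, 98 and 42 bases upstream of the start shown, which is 1 of its 3 RefSeq starts. SERPINH1, shown at 1 of 2 starts, holds GAANNTTC 71 bases upstream and ACGTG 36 bases after the start. Counted by window, ACGTG or GCGTG was present in 9 of the 12 windows of these genes and in 48.4% of all 35116 promoters of the same length (ACGTG in 21.4%, GCGTG in 36.5%), and GAANNTTC in 2 of the 12, of SERPINH1 and PLOD1, and in 6.77% of all. The windows are not separate, since both of SERPINH1 and 2 of LOX overlap, so that some matches are counted more than once. Counted by gene, 6 of 9 held ACGTG or GCGTG in a window. A share by gene over all promoters was not computed. P4HA2, PLOD3 and LOXL1 held neither ACGTG nor GCGTG. These letters were thus found in windows of genes that rose and of genes that fell. Matches are descriptions of letters, and binding was not measured.

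P4HA1 (ENSG00000122884.12) lies on chromosome 10 from 73007217 to 73096974 on the minus strand, with 15 exons in its canonical transcript (GRCh38, GENCODE release 44, for all positions given). It encodes the alpha subunit of the most widespread prolyl 4-hydroxylase. Its level was 62.5, 59.3 and 58.1 CPM across siCtrl 1 to 3, against 79.2, 69.6 and 82.9 CPM across siDDX17 1 to 3. Every knockdown library was above every control library, the lowest by 11.3% over the highest control. The log2 fold change was 0.37 (SE 0.0688, adjusted p = 0.000665, edgeR), a level 28.8% higher.

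P4HA2 (ENSG00000072682.18), the alternative alpha subunit, lies on chromosome 5 from 132190147 to 132295315 on the minus strand. It was measured at 53.3, 54.0 and 56.1 CPM across siCtrl 1 to 3, against 82.3, 81.7 and 80.8 CPM across siDDX17 1 to 3. The gap between the groups was far more than the spread within either of them, and P4HA2 had the highest log2 fold change of the 10 genes. That log2 fold change was 0.58 (SE 0.0536, adjusted p = 1.42e-06, edgeR). Its fold of 1.498 lay just inside the limit of 1.5, and without siCtrl 3 or without siDDX17 3 the log2 value was 0.60 or 0.59, past the limit of 0.585.

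COLGALT1 (ENSG00000130309.10, chromosome 19, 17555649 to 17583162, plus strand) transfers galactose to hydroxylysine. It was at 154, 147 and 156 CPM across siCtrl 1 to 3, against 211, 222 and 214 CPM across siDDX17 1 to 3. The groups did not overlap, and the lowest knockdown library was 35.1% above the highest control. The log2 fold change was 0.50 (SE 0.0544, adjusted p = 6.64e-06, edgeR).

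The 3 lysyl hydroxylases moved differently from each other. PLOD1 (ENSG00000083444.16, chromosome 1, 11934205 to 11975538, plus strand), which modifies lysines within the helix, was at 103, 103 and 101 CPM across siCtrl 1 to 3, against 126, 124 and 123 CPM across siDDX17 1 to 3. PLOD1 thus rose, with libraries that hardly differed within a group (log2 fold change 0.29, SE 0.0515, adjusted p = 0.000467, edgeR).

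PLOD2 (ENSG00000152952.11, chromosome 3, 146035139 to 146163725, minus strand) hydroxylates lysines of the telopeptides, the ends where crosslinks form. It was at 367, 293 and 276 CPM across siCtrl 1 to 3, against 245, 235 and 267 CPM across siDDX17 1 to 3. The groups did not overlap in CPM, but siCtrl 1 stood well above the rest, and the highest knockdown library was only 3.09% below the lowest control. In the deposited FPKM, which lack the TMM scaling, they overlapped: siDDX17 3 at 60.9 was above siCtrl 2 at 59.1 and siCtrl 3 at 56.9. The log2 fold change was -0.33 (SE 0.0918, adjusted p = 0.00989, edgeR). Without siCtrl 1 it was -0.20 (adjusted p = 0.00105, edgeR), and without siDDX17 2 it was -0.28 and the call was lost (adjusted p = 0.0645, edgeR). It also failed the test when libraries were scaled by size only (log2 fold change -0.20, adjusted p = 0.121), and over all alternatives its adjusted p ranged from 9.91e-07 to 0.407.

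PLOD3 (ENSG00000106397.11, chromosome 7, 101205977 to 101218420, minus strand), which has glycosyltransferase as well as hydroxylase activity, was at 57.6, 59.4 and 57.4 CPM across siCtrl 1 to 3, against 62.1, 62.1 and 59.8 CPM across siDDX17 1 to 3. Its groups did not overlap, but by 0.690% of the highest control only, and the log2 fold change of 0.08 did not pass the test (95% interval -0.04 to 0.19, adjusted p = 0.258, edgeR). It passed when libraries were scaled by size only, at 0.20 (adjusted p = 0.00706), a scaling that moves the median of all genes from 0.01 to 0.13. Exons of PLOD3 share 102 bases with ZNHIT1 on the opposite strand, which had a mean of 3322 reads per library beside 2128 for PLOD3.

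SERPINH1 (ENSG00000149257.13, chromosome 11, 75562056 to 75572783, plus strand) was at 71.8, 73.0 and 70.8 CPM across siCtrl 1 to 3, against 82.4, 88.6 and 85.1 CPM across siDDX17 1 to 3. All knockdown libraries were above all controls, by 12.8% at the nearest. The log2 fold change was 0.25 (SE 0.0546, adjusted p = 0.00201, edgeR).

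LOX (ENSG00000113083.12, chromosome 5, 122063195 to 122078413, minus strand), the founding lysyl oxidase, was a low gene in these cells, with 122, 84 and 96 reads in siCtrl 1 to 3 and 71, 65 and 57 reads in siDDX17 1 to 3. This made 3.60, 2.94 and 2.56 CPM in the control group and 1.84, 1.78 and 1.48 CPM in the knockdown group. LOX was highest in siCtrl 1, and every knockdown library was below every control, the nearest at -28.1% of the lowest control. It had the lowest log2 fold change of the 10 genes, -0.83 (SE 0.177, adjusted p = 0.00157, edgeR), and was at -0.69 without siCtrl 1 (adjusted p = 0.00159, edgeR). Exons of LOX share 138 bases with SRFBP1 on the opposite strand, with a mean of 162 reads beside 82.5 for LOX.

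LOXL1 (ENSG00000129038.15, chromosome 15, 73925989 to 73952137, plus strand), a relative that acts on elastin, had 9, 14 and 12 reads in siCtrl 1 to 3 and 8, 15 and 12 reads in siDDX17 1 to 3. The groups overlapped, and at this depth the 95% interval of its log2 fold change of -0.19 ran from -1.03 to 0.66 (adjusted p = 0.716, edgeR). The sign turned to 0.06 without siCtrl 2 and to 0.03 without siDDX17 1, so no direction is given. An antisense gene, LOXL1-AS1, shares 335 exonic bases and had a mean of 13.8 reads.

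LOXL2 (ENSG00000134013.15, chromosome 8, 23296897 to 23425328, minus strand), which acts on the collagen IV of basement membranes, was at 291, 269.9 and 283 CPM across siCtrl 1 to 3, against 309, 291 and 293 CPM across siDDX17 1 to 3. The groups all but touched, 0.119% apart. The log2 fold change was 0.08 (95% interval -0.04 to 0.20, adjusted p = 0.241, edgeR), and 0.20 when libraries were scaled by size only, where it passed (adjusted p = 0.0110). Exons of LOXL2 share 120 bases with ENTPD4 on the same strand, with a mean of 876 reads beside 10330 for LOXL2. They also share 178 bases with LOXL2-AS1 on the opposite strand, with a mean of 0.83 reads. Across the 10 genes, 9 had groups that did not overlap in CPM, 7 with siDDX17 above and 2 with it below. Of all tested genes, 56.5% had such groups (28.8% above, 27.7% below).

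**Figure D1:**
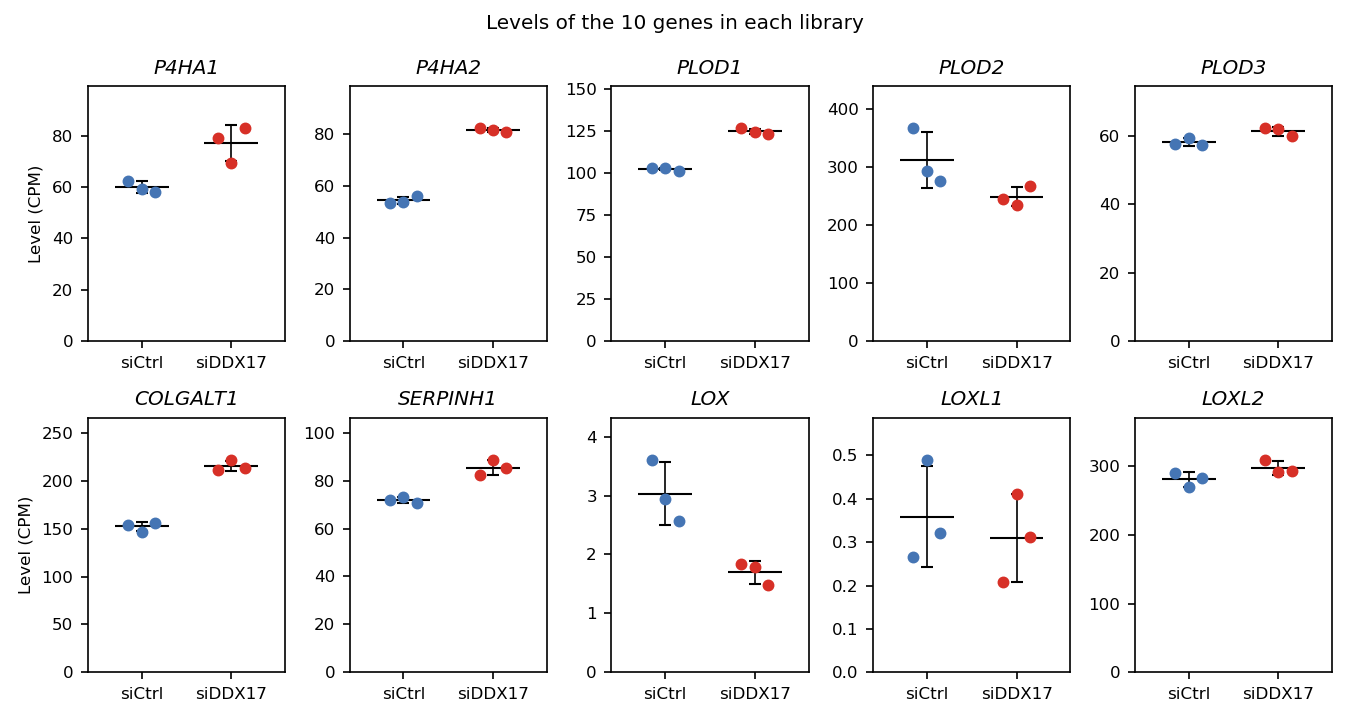
Level of each of the 10 genes in CPM (vertical axes, each from 0) in the 3 siCtrl libraries (blue) and the 3 siDDX17 libraries (red); horizontal lines are means and bars the SD of 3 libraries. The blue and red points are well apart for P4HA2 and COLGALT1, nearly touch for PLOD3 and LOXL2, and overlap for LOXL1, while siCtrl 1 at 367 CPM stands above the other points of PLOD2.

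**Figure D2:**
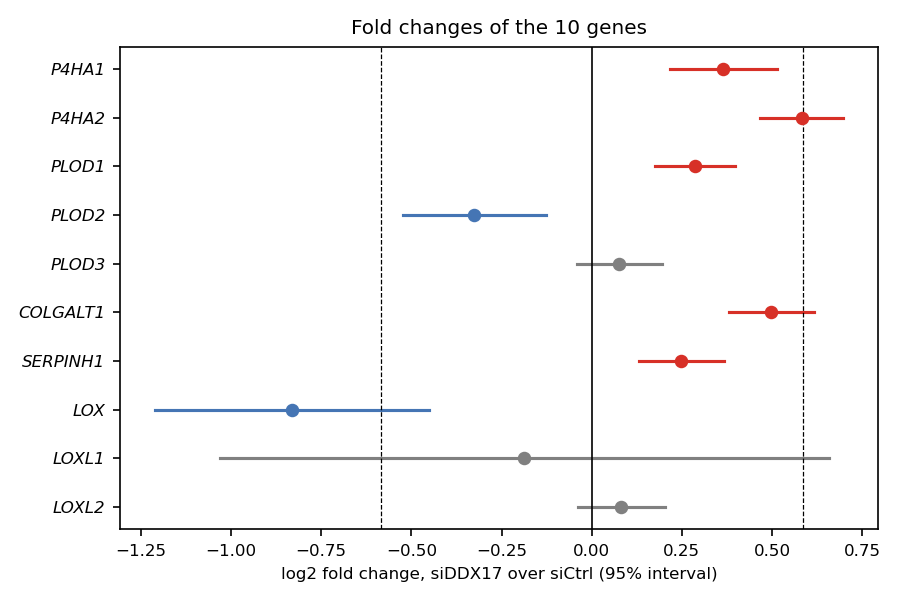
log2 fold change of each gene, siDDX17 over siCtrl, with its 95% interval from edgeR; red genes rose, blue genes fell and grey genes did not pass the test, and dashed lines mark a fold of 1.5 in either direction. LOX at -0.83 is past a dashed line and P4HA2 at 0.58 lies on the other.

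On the FPKM scale, which takes gene length into account and so lets genes be compared, LOXL2 was the highest of the 10 genes in siCtrl at 72.6 ± 4.33 FPKM (SD, n = 3), followed by PLOD2 at 64.5 ± 11.2, from which it did not differ beyond the spread. COLGALT1 followed at 37.7 ± 1.94 and PLOD1 at 31.8 ± 0.738 FPKM. P4HA1 at 18.8 ± 1.05 and PLOD3 at 18.2 ± 0.217 were within the spread of each other, as were SERPINH1 at 13.5 ± 0.246 and P4HA2 at 13.4 ± 0.420 FPKM. LOX at 0.543 ± 0.104 and LOXL1 at 0.140 ± 0.0436 FPKM were far below all others. In siDDX17 LOXL2 remained highest at 84.0 ± 3.10 FPKM, while COLGALT1 at 58.2 ± 1.10 and PLOD2 at 56.2 ± 4.37 were within their spread of each other. PLOD1 came next at 42.4 ± 0.636, then P4HA1 at 26.4 ± 2.65, P4HA2 at 21.8 to 22.2 over its libraries, PLOD3 at 21.0 ± 0.290 and SERPINH1 at 17.6 ± 0.538 FPKM. P4HA2, below PLOD3 in siCtrl, was thus above it in siDDX17, and LOX at 0.333 ± 0.0379 and LOXL1 at 0.130 ± 0.0400 FPKM stayed last. Deposited FPKM lack the TMM scaling, and a test on them moved the median log2 value of all genes to 0.07 (limma on log2(FPKM + 1)). Apart from the overlap given for PLOD2, only the order of genes and shares within a library are therefore read from them between groups.

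LOXL2 made up almost the whole lysyl oxidase RNA of these cells. Of the summed FPKM of LOX and LOXL1 to LOXL4, LOXL2 held 98.5% in siCtrl and 98.9% in siDDX17, whereas LOX held 0.735 ± 0.114% and 0.393 ± 0.0437% (SD, n = 3). Among the lysyl hydroxylases the share of PLOD2 was 60.2%, 54.5% and 53.4% in siCtrl 1 to 3 and 46.2%, 45.4% and 49.1% in siDDX17 1 to 3. PLOD1 held 25.4%, 28.8% and 29.6% of that sum in siCtrl 1 to 3 and 35.9%, 36.3% and 34.2% in siDDX17 1 to 3. The telopeptide enzyme thus took a smaller part of lysyl hydroxylase RNA in each knockdown library than in each control, and the helical enzyme a larger one. Among the prolyl 4-hydroxylase alpha subunits the share of P4HA1 went from 48.0 ± 0.905% to 39.7 ± 2.26%, that of P4HA2 was 34.4 ± 1.47% and 33.1 ± 1.40%, and that of P4HA3, which is not 1 of the 10 genes, went from 17.7 ± 0.581% to 27.2 ± 1.46%. Shares within a library do not depend on the scaling between libraries. The RNA of the beta subunit P4HB, which is also the free protein disulfide isomerase, was 9.88 ± 0.238 times the summed FPKM of P4HA1 and P4HA2 in siCtrl and 8.44 ± 0.529 times in siDDX17.

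**Figure D3:**
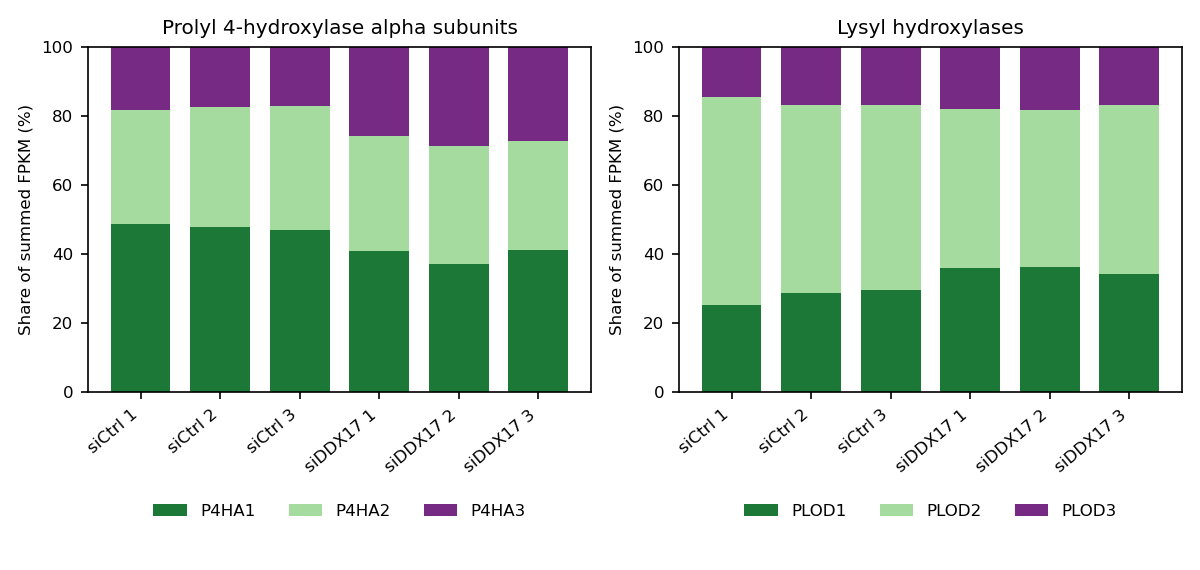
Share of the summed FPKM (vertical axis, percent) held by each prolyl 4-hydroxylase alpha subunit (left) and each lysyl hydroxylase (right) in each of the 6 libraries, stacked from 0 to 100. The P4HA3 part is larger in the 3 siDDX17 libraries (25.7% to 28.6%) than in the 3 siCtrl libraries (17.2% to 18.3%), and the PLOD2 part smaller.

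Ratios of reads between members within a library, which no library scaling can alter, were compared for 6 pairs by an exact two-sided permutation test, for which 3 libraries against 3 allow no p under 0.1. PLOD2 had 3.58, 2.86 and 2.72 reads per PLOD1 read in siCtrl 1 to 3 and 1.94, 1.89 and 2.17 in siDDX17 1 to 3. This ratio was 0.659 times that of the controls, with no overlap (exact permutation p = 0.1, adjusted over 6 pairs 0.12). Its log2 difference of -0.60 was -0.48 without siCtrl 1. PLOD3 had 0.562, 0.579 and 0.567 reads per PLOD1 read in siCtrl and 0.865 times as many (geometric mean) in siDDX17, again without overlap (exact permutation p = 0.1). LOXL2 had 80.7, 91.9 and 110.4 reads per LOX read in siCtrl 1 to 3 and 168, 163 and 198 in siDDX17 1 to 3, a ratio 1.88 times higher. P4HA2 per PLOD2 read was 1.87 times higher, and P4HA2 per P4HA1 read 1.17 times higher, both without overlap. LOXL1 per LOX overlapped between the groups (exact permutation p = 0.3), and its log2 difference of 0.61 was 0.29 without siCtrl 1. The 6 pairs reuse the same genes, with PLOD1, PLOD2, LOX and P4HA2 in 2 pairs each, and are not separate observations. Single genes already separated for 56.5% of those tested. With 3 libraries a group, 0 of the 6 could reach a p of 0.05.

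The other genes that modify or fold collagen were taken from a list of 14, of which 13 were tested. Of these, 6 rose and 2 fell, against 24.5% and 24.3% of all tested genes, with a median log2 fold change of 0.16. P4HA3, the third alpha subunit, was at 18.2, 16.8 and 16.5 CPM across siCtrl 1 to 3, against 38.7, 41.7 and 42.8 CPM across siDDX17 1 to 3. Its log2 fold change of 1.26 (SE 0.0715, adjusted p = 2.05e-08, edgeR) was past a fold of 2, which P4HA1 and P4HA2 did not reach. P3H2, a prolyl 3-hydroxylase, rose from 39.8 ± 0.829 to 68.9 ± 1.46 CPM (SD, n = 3, log2 fold change 0.79, adjusted p = 1.21e-07, edgeR), and P4HB rose by 0.23 on the log2 scale (adjusted p = 0.00365, edgeR). FKBP14, a prolyl isomerase that helps collagen fold, fell to 10.1 ± 0.637 CPM (SD, n = 3, log2 fold change -0.58, adjusted p = 0.000236, edgeR). LOXL3 and LOXL4, the remaining lysyl oxidases, were at 0.0700 and 0.367 mean FPKM in siCtrl.

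Of the genes of collagen export and propeptide processing, 4 were higher and 4 lower of 15 tested (of 19 listed). These counts were near the shares of all tested genes, 24.5% higher and 24.3% lower. The median log2 fold change of the list was 0.04. BMP1, the protease that releases the C-propeptide of collagen and activates LOX, rose from 55.6 ± 3.45 to 75.3 ± 3.78 CPM (SD, n = 3, log2 fold change 0.44, adjusted p = 8.47e-05, edgeR), whereas PCOLCE, which enhances that cleavage, had a log2 fold change of -0.69 (adjusted p = 0.000176, edgeR). SEC23B, a coat protein of export vesicles, had a log2 fold change of -0.44 (adjusted p = 0.000261, edgeR). The count of 4 higher genes fell to 1 without siCtrl 2 or siDDX17 3 and to 2 without siCtrl 3, siDDX17 1 or siDDX17 2, and that of 4 lower genes to 2 without siDDX17 2 or siDDX17 3. With library size only they were 6 higher and 2 lower.

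The substrate list held collagens and elastin (ELN), together with the matrix proteins FBN1, FBN2, FBLN5, EFEMP2 and FN1. Of its 29 genes, 26 were found and 22 tested. ELN did not pass the test (log2 fold change 0.19, adjusted p = 0.670, edgeR), while FBN1, FBN2 and FBLN5 were among the genes that rose. In that list 14 rose and 0 fell by edgeR, against 24.5% and 24.3% of all tested genes. The count of lower genes was also 0 at an unadjusted p under 0.05, and 0 by DESeq2 and limma. The median log2 fold change was 0.48, above that of the enzymes. COL4A1 and COL5A1 had the log2 fold changes 2.03 and 2.60 (adjusted p = 2.89e-09 and 2.86e-10, edgeR), and COL4A4 1.32 (adjusted p = 8.51e-08, edgeR). These were low genes in siCtrl, with COL4A1 at 0.62, COL5A1 at 0.49 and COL4A4 at 0.687 mean FPKM. In siDDX17 they were at 2.75, 3.28 and 1.87 mean FPKM in the same order. In both groups they stayed below each of the 10 genes other than LOX and LOXL1. COL1A1, a chain of the main fibrillar collagen of skin and bone, was at 2.86, 3.11 and 3.55 CPM across siCtrl 1 to 3, against 2.46, 2.58 and 2.88 CPM across siDDX17 1 to 3, with overlapping groups, and did not pass the test (log2 fold change -0.27, adjusted p = 0.149, edgeR). A difference in median between lists was not tested.

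Of 20 genes known to be induced by hypoxia, the response to low oxygen to which P4HA1, P4HA2, PLOD2 and LOX also belong, 11 fell and 2 rose, with a median log2 fold change of -0.20. The shares of all tested genes were 24.3% lower and 24.5% higher. BNIP3, a mitophagy receptor, fell by 0.69 and PGK1, a glycolytic enzyme, by 0.64 on the log2 scale (adjusted p = 6.30e-07 and 2.28e-06, edgeR), while CA9, a carbonic anhydrase, rose by 0.46 (adjusted p = 5.83e-05, edgeR). The 4 collagen enzymes of this kind were split, with P4HA1 and P4HA2 higher and PLOD2 and LOX lower. The 11 lower genes became 7 without siCtrl 3 or without siDDX17 3, the 2 higher ones 4 without siCtrl 3, and scaling by library size only gave 6 in each direction, while limma on log2(FPKM + 1) gave 3 lower and 4 higher.

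Of 12 genes inducible by TGF-beta, a growth factor that raises collagen synthesis in many cells, 5 rose and 4 fell. Over all tested genes 24.5% rose and 24.3% fell. TGFBI rose by 0.45 on the log2 scale, whereas JUNB fell by 0.95 and SMAD7, the feedback inhibitor of the pathway, by 0.77 (adjusted p = 3.33e-05, 3.23e-08 and 2.68e-05, edgeR). Without siCtrl 1, 7 rose and 4 fell. Among 12 targets of the heat shock factor, to which SERPINH1 also belongs, 3 rose and 2 fell, against those same shares of all tested genes. HSPD1, a mitochondrial chaperonin, and HSP90AA1, a cytosolic chaperone, rose by 0.83 and 0.68 (adjusted p = 1.14e-06 and 0.000139, edgeR). DNAJA1, a co-chaperone, was at 145, 231 and 246 CPM in the 3 controls and at 284, 261 and 272 CPM in the 3 knockdown libraries, so that siCtrl 1 stood far below the rest. Its log2 fold change was 0.39 (adjusted p = 0.0319, edgeR) with all libraries and 0.18 without siCtrl 1 (adjusted p = 0.00238, edgeR), and it did not pass without siDDX17 1, siDDX17 2 or siDDX17 3 (adjusted p = 0.0989, 0.0784 and 0.0808, edgeR) or by DESeq2 (adjusted p = 0.178). The controls differed widely in this list, siCtrl 1 being the lowest for every gene but CHORDC1, as for HSPA8, the constitutive HSP70, at 929, 1677 and 1845 CPM, and HSPA1A, the inducible one, at 30.9, 72.0 and 124 CPM. Without siCtrl 1 HSPD1 and HSP90AA1 were at 0.74 and 0.54, and 4 genes of the list rose and 2 fell. The 3 higher heat shock genes became 7 without siCtrl 3 and 5 with the replicate number as a block, the 2 lower ones 1 without siCtrl 2 and 1 with that block, and 0 without siCtrl 3 or without any of the knockdown libraries. With library size only they were 6 higher and 0 lower.

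The hydroxylases need ascorbate and iron and the lysyl oxidases copper. Of 12 genes listed for the transport, storage or handling of these, 2 rose and 5 fell, against 24.5% and 24.3% of all tested genes. The list holds exporters and storage proteins as well as importers, so these counts give no direction of supply. SLC31A1, the copper importer, had a log2 fold change of -0.37 and SLC23A2, an ascorbate transporter, of -0.34, while SLC23A1, the other ascorbate transporter, was higher by 0.66 at a low level of 2.72 and 4.29 mean CPM (adjusted p = 0.000210, 0.000639 and 0.00138, edgeR). The 5 lower genes became 3 without siCtrl 3, and 2 without siDDX17 1 or without siDDX17 3, and with library size only 5 rose and 2 fell.

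**Figure D4:**
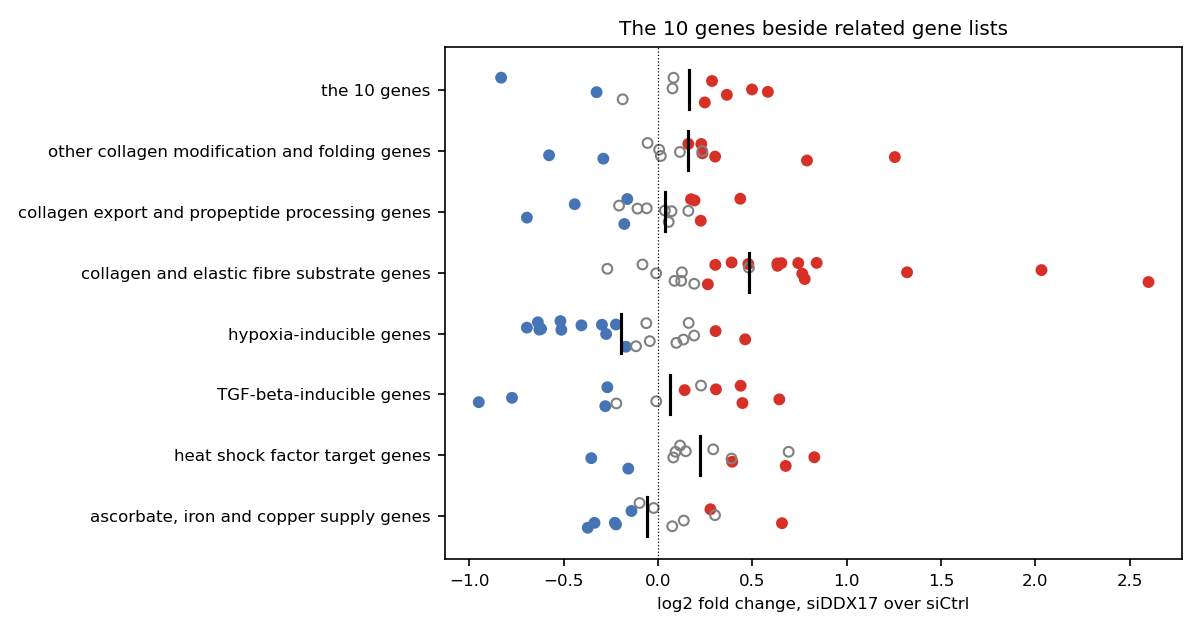
log2 fold changes (horizontal axis, siDDX17 over siCtrl) of the tested genes of each list; red points rose, blue points fell, open grey points did not pass the test, and black bars are medians. The substrate list has 14 red and 0 blue points, the hypoxia list 11 blue and 2 red, and the 10 genes 5 red and 2 blue. Over all tested genes 24.5% rose and 24.3% fell.

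**Figure D5:**
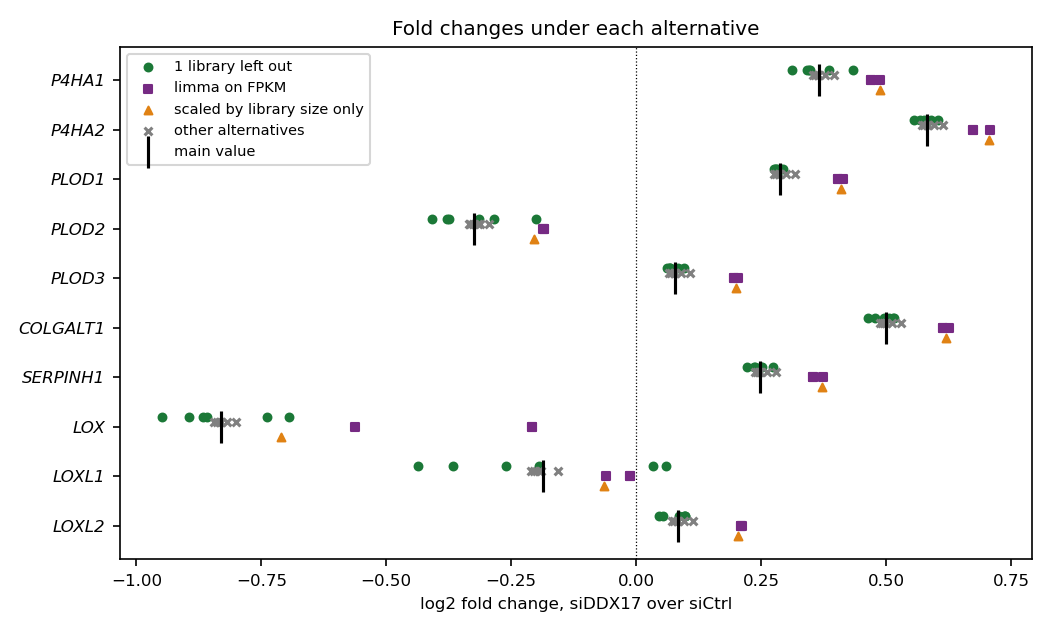
log2 fold change of each of the 10 genes (horizontal axis, siDDX17 over siCtrl) as reported (black bar) and under each alternative, with symbols by kind. Points of the 5 genes that rose stay right of 0, those of PLOD2 and LOX stay left of it, and those of LOXL1 lie on both sides.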

How the data were processed

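RNA of A549 cells was sequenced in 6 stranded polyA libraries, 3 siCtrl and 3 siDDX17. The authors removed adaptors and low-quality bases, aligned reads by TopHat2 to GRCh38, and deposited raw counts of uniquely mapped reads per gene. They also deposited FPKM values, rounded to 2 decimals. The counting program, annotation version and use of strand are not given in the sources used here, so genes overlapping on opposite strands are uncertain. How reads were assigned where exons overlap on the same strand, as for LOXL2 and ENTPD4, is likewise not known. The sample labels give a harvest at 48 h for every library. The methods give 48 h after transfection for RT-qPCR, and no other time is given there for the sequenced cells.

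The main test on the deposited counts was edgeR 4.0.16 under R 4.3.3 (TMM scaling, filterByExpr, glmQLFit, glmQLFTest, Benjamini-Hochberg adjustment over 15615 genes). Standard errors and 95% intervals were derived from its F statistics. Count totals were 30658136 to 39182371 reads, and low counts limit LOX and LOXL1. Alternatives were DESeq2 1.42.0, limma 3.58.1 on log2(FPKM + 1) and log2(FPKM + 0.1), other scalings and filters, the replicate number as a block, and each library left out. The script was tested on simulated data. Locations are those of GENCODE release 44 and promoters those of RefSeq, both on GRCh38. Genes were matched by identifier, MIA2 as CTAGE5 and CCN2 as CTGF, and COL1A2, COL2A1, COL8A1 and SFTPA1 were not analysed here. The members and lists were chosen with earlier results of these data known. All 10 members are named, and from each other list the 3 genes with the smallest adjusted p among those that passed without overlap between the groups, with P4HB, BMP1, COL1A1, COL4A1 and COL5A1 as direct partners. HSPA8, HSPA1A, CHORDC1, LOXL3, LOXL4 and markers were named after their values were seen.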

Additional observations from a re-analysis of the deposited data

How the results depend on the processing

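The 5 higher genes numbered 5 in each fit that left out 1 library, and 7 when libraries were scaled by size only or tested by limma on FPKM, where PLOD3 and LOXL2 also passed. The 2 lower genes numbered 1 to 2 when a library was left out, 1 with library size only, 1 by limma on log2(FPKM + 1) or log2(FPKM + 0.1), and 0 by limma without a low-value filter, where LOX was at -0.21 (adjusted p = 0.0654). Past a fold of 1.5, the 0 higher genes became 1 with upper quartile scaling or with at least 10 counts in every library, 2 with library size only and 2 in each of the 3 limma fits, and ranged from 0 to 1 with a library left out. The 1 lower gene past that fold, LOX, was 1 in each fit with a library left out and became 0 in the 3 limma fits. The cause of these moves was not tested. DDX17 stayed between -2.66 and -2.30 on the log2 scale.

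Of the related lists pooled, 36 genes rose and 28 fell, beside 24.5% and 24.3% of all tested genes. The lower genes of these lists numbered 14 with library size only, 10 by limma with either pseudocount, 8 by limma without a filter, and 17 to 30 with a library left out. LOXL1, at -0.19 on the log2 scale, ranged from -0.44 to 0.060 with a library left out, and turned to 0.060 without siCtrl 2 and to 0.033 without siDDX17 1. Scaling by library size only raised the share of higher genes among all called genes from 50.1% to 67.7%, and limma on log2(FPKM + 1) raised it to 68.7%. Same-numbered libraries did not deviate together (correlations 0.00698, 0.0407 and -0.0564). With 3 libraries a group, and siCtrl 1 standing apart, this cannot decide whether the numbers pair the samples. With the replicate number as a block, 5 genes rose and 2 fell, and 7481 genes were called in place of 7617 over all genes. Of the other named genes, added as alternatives after the data were seen, DNAJA1 lost its call without each siDDX17 library, by DESeq2 and by limma without a filter (adjusted p = 0.0906), SEC23B by limma without a filter (adjusted p = 0.0736), and SLC23A2 in the 3 limma fits (adjusted p = 0.0550 to 0.121).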
